A study of Homo sapiens with 6 samples.

Results

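The clustered replication-dependent histone genes were described in HK-2 cells, an immortalized line of human renal proximal tubular epithelium, with and without overexpression of hnRNP-F, an RNA-binding protein of splicing and polyadenylation. The members were the protein-coding genes of the count table with the symbols of the linker histones H1-1 to H1-6 or of the H2AC, H2BC, H3C and H4C series. This gave 60 of 31831 genes, of which 6 encode H1, 14 H2A, 16 H2B, 11 H3 and 13 H4. All of them lie on 2 chromosomes (GRCh38), with 50 on chromosome 6 between 26017032 and 27893891 and 10 on chromosome 1 between 149782689 and 149887965. The libraries fell into HG-NC (n = 3), which carried an empty lentiviral vector, and HG-OE (n = 3), which carried the hnRNP-F lentivirus. The study's text describes both groups as grown in high glucose and the replicates as biological, whereas the labels give only the line and the overexpression. The overexpressed gene was not distinguished from the endogenous one in these counts.

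Core histones package DNA into nucleosomes, and the linker histone H1 binds where DNA enters and leaves the nucleosome. The clustered genes supply histones while DNA is copied in S phase. Their mRNAs, unlike other mRNAs of animal cells, usually end in a conserved stem-loop in place of a poly(A) tail, cut by the U7 snRNP and bound by the stem-loop binding protein SLBP. Some of the genes also give poly(A)-tailed transcripts, either from a poly(A) signal just past the stem-loop or from longer, often spliced forms. A library made by capture on poly(A) tails should hold the tailed transcripts and few of the others. For this reason the members were split into 8 known for tailed transcripts, H1-2, H2AC6, H2BC4, H2BC5, H2BC11, H2BC12, H2BC21 and H4C8, here called polyadenylated, and 52 other members.

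The stem-loop was looked for because it is the 3′ end that mRNAs of these genes usually have instead of a tail. Of the members, 58 matched a gene of GENCODE release 44, and a stem-loop of 16 bases began 23 to 63 bases past the stop codon in all 58 of them. There were 10 distinct sequences, and the most frequent stood in 31 genes. The genes shown are the 3 most counted polyadenylated members, the polyadenylated H4 gene, the most counted other member, the members called higher and H3C2, which had the most counts of those that failed the low-count filter described below. Each sequence is the gene's own strand, 5′ to 3′ (GRCh38), with the stem-loop in capitals.
H2BC12, chr6:27146361-27146386: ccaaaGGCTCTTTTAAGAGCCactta
H1-2, chr6:26055739-26055764: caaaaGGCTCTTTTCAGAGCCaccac
H2AC6, chr6:26124664-26124689: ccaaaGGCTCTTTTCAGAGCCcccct
H4C8, chr6:26285126-26285151: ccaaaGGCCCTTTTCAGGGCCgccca
H3C6, chr6:26225591-26225616: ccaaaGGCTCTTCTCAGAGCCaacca
H3C12, chr6:27890315-27890340: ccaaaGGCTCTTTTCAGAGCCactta
H1-4, chr6:26157090-26157115: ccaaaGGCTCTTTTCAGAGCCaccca
H3C2, chr6:26031592-26031617: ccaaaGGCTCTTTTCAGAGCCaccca
H1-2, H2AC6, H3C12, H1-4 and H3C2 thus hold the same 16 bases, although the first and second are polyadenylated members and the others are not. The hexamer AATAAA, the common poly(A) signal, stood within 100 bases past the stem-loop, on the gene's strand, in 2 of the 58 genes. Both are polyadenylated members, and in both the hexamer began at base 13 past the stem-loop. It is given in capitals below.
H1-2, chr6:26055718-26055743: accactgatctcAATAAAagagctgg
H2BC5, chr6:26158603-26158628: acgcatgttttcAATAAAtgagttgt
The match is a description of these letters and not of use of the site.

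The libraries held 25507595 to 29444841 counts, and their scaling factors lay between 0.997 and 1.00. HNRNPF had 7733, 8623 and 8692 counts in HG-NC and 12492, 13155 and 12397 in HG-OE. Its log2 fold change was 0.48 (SE 0.04, adjusted p = 1.23e-09), in the direction of the labels. Of the markers of proximal tubule fixed for the check, 10 of 12 were listed. PAX8, a kidney transcription factor, had 11953 to 18291 counts, whereas LRP2, the endocytic receptor megalin, had 0 counts in 5 of 6 libraries and 17 in HG-OE replicate 3, so this defining marker was not detected in 5 libraries. HG-OE replicate 3 stood apart. In it ALB, the serum albumin gene of hepatocytes, had 4359 counts against 0 and 1 in HG-OE replicates 1 and 2 and 4, 1 and 78 in HG-NC. Of 14 liver markers, 12 were over 2-fold higher in HG-OE replicate 3 than in every other library. Only 2 of the liver markers had enough counts to be tested, SERPINA1 and FGB. SERPINA1 passed (log2 fold change 0.72, adjusted p = 8.15e-09). FGB did not (3.41, adjusted p = 0.0897), but without HG-OE replicate 3 it did (1.725, adjusted p = 2.13e-10). Of the 5 proximal tubule markers tested, only PAX8 passed (-0.51, adjusted p = 6.35e-07). Results that rest on this library are therefore given with and without it.

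The members took 0.0174% to 0.0210% of all counts in each library, and most of this came from few genes. H2AC6, H2BC12, H1-2 and H2BC5, all polyadenylated, gave 77.8% to 79.2% of the members' counts in 5 libraries and 64.3% in HG-OE replicate 3. The other members gave 14.2% to 15.8% in those 5 libraries and 27.7% in HG-OE replicate 3. On the CPM scale, which divides each count by the scaled size of its library, the summed level of the polyadenylated members was 180, 169 and 166 in HG-NC, 159 and 149 in HG-OE replicates 1 and 2, and 153 in replicate 3. The summed level of the other members was 29.9, 30.2 and 31.1 CPM in the HG-NC libraries, 28.1 and 26.2 in HG-OE replicates 1 and 2, and 58.6 CPM in replicate 3. The polyadenylated members of HG-OE replicate 3 thus lay at 0.993 times the level of replicates 1 and 2 together (95% exact interval 0.958 to 1.03), and the other members at 2.16 times (2.02 to 2.31). These intervals cover counting error only, since 1 library carries the difference. In bulk RNA, more cells with a transcript and more of it per cell cannot be told apart.

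The annotation, which does not depend on the measured values, splits the other members further, although this split was chosen after seeing the data. H2BC12 and H1-2, also annotated in the short form only, are on the polyadenylated list and so are not part of the split. In GENCODE 8 of the other members have a spliced form or an end over 200 bases past the stop codon. A further 42 are annotated in the short form only. Of these 42, H2AC11, H2BC8, H3C8, H2BC9, H4C5 and H4C9 were counted over longer lengths, 1291 to 2420 bases, as described below. They made up much of the level of the 42 outside HG-OE replicate 3, with a mean of 2.98 CPM in HG-NC for H2AC11. The 8 had a summed level of at most 20.8 CPM in the HG-NC libraries, 16.5 and 16.4 in HG-OE replicates 1 and 2, and 17.9 in replicate 3. The 42 had 9.83, 9.31 and 10.8 CPM in the HG-NC libraries, 11.5 and 9.69 in HG-OE replicates 1 and 2, and 40.6 in replicate 3. Replicate 3 thus lay at 1.09 times replicates 1 and 2 for the 8 (95% exact interval 0.976 to 1.21) and at 3.82 times for the 42 (3.47 to 4.22). With classes from the annotation alone, which place H2BC12 and H1-2 with the short forms, the ratio of the short forms was 1.38.

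**Figure D1:**
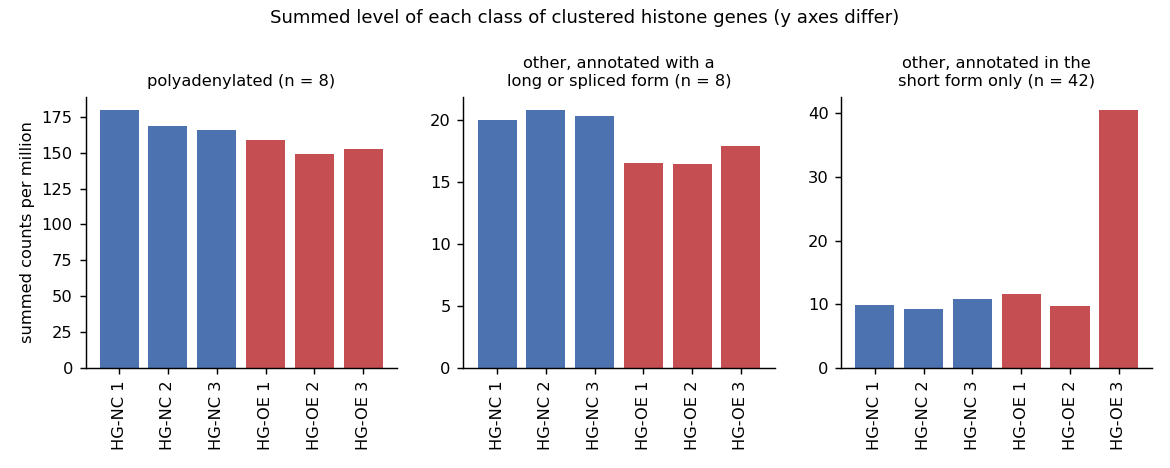
Summed CPM of the clustered histone genes in each library, by class, with HG-NC in blue and HG-OE in red and a separate y axis for each class. The polyadenylated members lie between 149 and 180 CPM in all libraries, whereas the 42 other members annotated in the short form only reach 40.6 CPM in HG-OE replicate 3 against 9.31 to 11.5 CPM in the remaining libraries.

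Levels were compared between genes on the FPKM scale, which divides by the length over which the authors counted. That length was 495 bases for H2BC12 and 1667 for H2AC6, whose intronless form has 519 bases. Reads that lie on a short form are then divided by a longer length. The order of genes counted over unlike lengths is therefore uncertain. In HG-NC the mean level was 62.8 FPKM for H2BC12, 41.4 for H2AC6, 37.0 for H1-2 and 16.6 for H2BC5. H2BC11 followed with 4.88, H3C6 with 4.18 and H4C8 with 1.72 FPKM, and H3C6 was the only one of these 7 genes that was not on the polyadenylated list. The remaining members had mean levels of at most 1.22 FPKM in HG-NC.

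Between HG-OE and HG-NC, the polyadenylated members changed in both directions and none reached 2-fold. All 8 passed the low-count filter. A gene was called when its adjusted p was under 0.05 and its change at least 2-fold, which held for 5.53% of the 17142 genes tested. At the adjusted p alone, which 25.9% of genes passed upward and 26.2% downward, 2 polyadenylated members were higher and 3 lower. Their median log2 fold change was -0.03, against 0.01 over all genes tested, and it lay between -0.09 and 0.01 when 1 library was left out at a time.

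H2AC6, an H2A gene with spliced longer forms, had 2035, 2020 and 2147 counts in HG-NC and 1777, 1589 and 1579 in HG-OE. The groups did not overlap, and the level fell from 77.2 ± 2.72 to 56.6 ± 4.05 CPM (SD, n = 3 each). The log2 fold change was -0.45 (SE 0.05, adjusted p = 3.36e-07). H1-2, a linker histone of most somatic cells, fell likewise, with 873, 780 and 771 counts in HG-NC and 635, 544 and 601 in HG-OE. Its log2 fold change was -0.57 (SE 0.08, adjusted p = 1.10e-05). H2BC5 had 442, 438 and 416 counts in HG-NC and 405, 409 and 380 in HG-OE, and fell by 0.24 on the log2 scale (SE 0.09, adjusted p = 0.0233). Without HG-OE replicate 3 the H2BC5 change was -0.20 with an adjusted p of 0.0506, and the adjusted p was 0.117 without HG-NC replicate 1 and 0.0578 without HG-NC replicate 2, so each of these libraries decided whether it passed.

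H2BC12, an H2B gene and the member with the highest FPKM, moved the other way. It had 877, 958 and 958 counts in HG-NC and 1407, 1427 and 1420 in HG-OE, and rose from 34.7 ± 0.593 to 48.7 ± 0.305 CPM (SD, n = 3 each). The log2 fold change was 0.49 (SE 0.05, adjusted p = 1.02e-07), and HG-OE replicate 3 lay with replicates 1 and 2. Shared sequence was measured on the intronless form of each member, in windows of 100 bases. Of the windows of H2BC12, 22.5% also occur in transcripts of other genes, so part of its count is uncertain, while 43 of the matched members share no such window. H2BC21, an H2B gene of the chromosome 1 cluster, had 59, 60 and 53 counts in HG-NC and 72, 85 and 123 in HG-OE. Its log2 fold change was 0.58 (SE 0.21, adjusted p = 0.0231), and it was 0.34 with an adjusted p of 0.161 without HG-OE replicate 3. Without HG-NC replicate 2 or 3 the adjusted p was 0.0561 and 0.0989. H2BC4 had 26, 35 and 31 counts in HG-NC against 52, 28 and 73 in HG-OE, so the groups overlapped, and it did not pass (adjusted p = 0.0906). Without HG-OE replicate 2 it did (adjusted p = 0.0095, log2 fold change 0.90). H2BC11 had 144 to 158 counts in HG-NC and 124 to 151 in HG-OE, and H4C8 had 105 to 119 and 116 to 165, and neither passed (adjusted p = 0.0925 and 0.370).

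**Figure D2:**
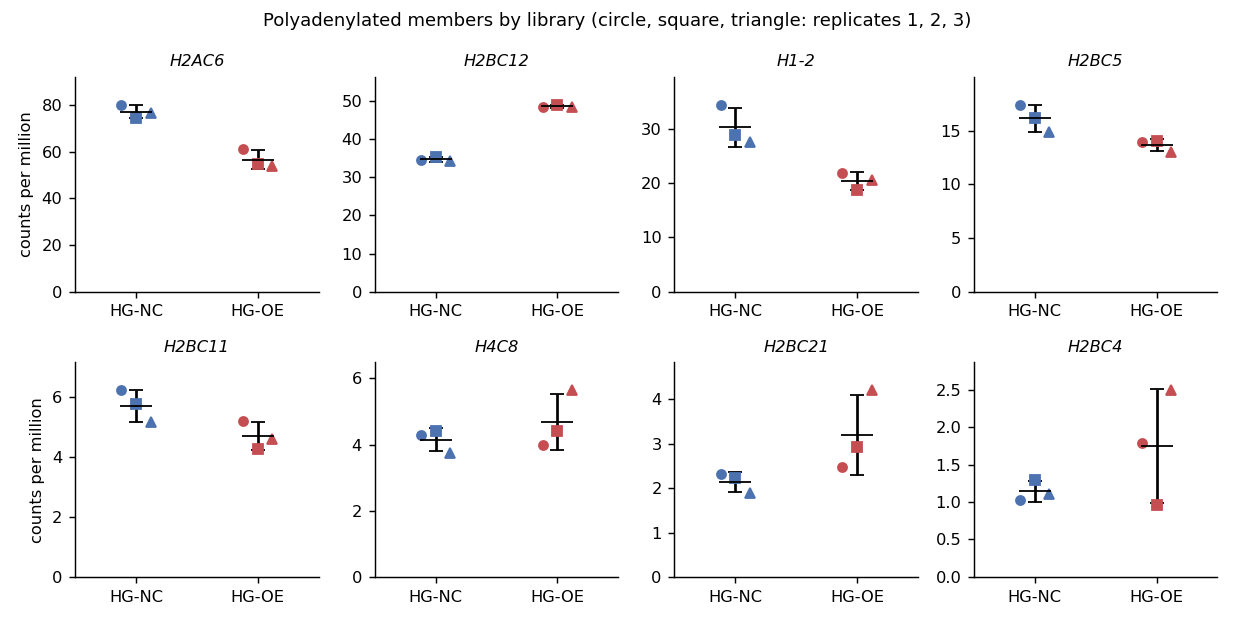
CPM of the 8 polyadenylated members in each library, with the replicate shown by the marker and the mean and SD of each group (n = 3) by the black bars. H2BC12 is higher in all 3 HG-OE libraries and H2AC6, H1-2 and H2BC5 are lower in all 3, whereas H2BC4 overlaps between the groups.

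Of the 52 other members, 15 passed the low-count filter. Their median log2 fold change was 0.11 with all libraries and -0.06 without HG-OE replicate 3. In all, 2 of these were called higher and 0 lower in HG-OE. Over all genes tested, 3.39% were called higher and 2.14% lower. The calls were H3C12, a core histone H3 gene, and H1-4, a linker histone gene, both of low level. H3C12 had 6, 3 and 4 counts in HG-NC and 17, 12 and 35 in HG-OE, so the groups did not overlap and replicate 3 was highest. Its log2 fold change was 2.15 (SE 0.50, adjusted p = 9.98e-04), and 1.60 (adjusted p = 0.0125) without HG-OE replicate 3. H1-4 had 8, 10 and 6 counts in HG-NC and 21, 16 and 75 in HG-OE. The log2 fold change was 2.08 (SE 0.67, adjusted p = 0.0296), and without HG-OE replicate 3 it was 1.08 (adjusted p = 0.0430). Without HG-NC replicate 1, 2 or 3 in turn, the adjusted p of H1-4 was 0.113, 0.0859 and 0.128, so the call rested on each of these libraries. Without HG-OE replicate 3, the members called were again H3C12 and H1-4, and 6.22% of all genes tested were called. Both genes passed the filter through their counts in HG-OE.

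H3C6, an H3 gene and the most counted of the other members, was lower in every HG-OE library. It had 293, 346 and 371 counts in HG-NC and 233, 237 and 197 in HG-OE, and its log2 fold change was -0.72 (SE 0.11, adjusted p = 6.99e-06). It was the only other member that was lower at the adjusted p. H2BC18, an H2B gene of chromosome 1, had 29, 23 and 20 counts in HG-NC and 44, 45 and 64 in HG-OE. Its log2 fold change of 0.96 (SE 0.27, adjusted p = 0.0051) was just under 2-fold, and it was over 2-fold without HG-NC replicate 1 (1.16), HG-OE replicate 1 (1.05) or HG-OE replicate 2 (1.04). Without HG-OE replicate 3 it was 0.77 (adjusted p = 0.0223). Its count is uncertain, since a larger share of the 100-base windows of its intronless form than of those of H2BC12 also occurs in transcripts of other genes. H2BC18 was counted over 3199 bases, so this share does not cover the whole counted length.

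The further members with high counts did not pass. H2BC15 had 96 to 118 counts in HG-NC and 112 to 125 in HG-OE (log2 fold change -0.02, SE 0.15). H2AC11 had 64 to 94 and 72 to 119 counts, and H3C10 had 28 to 39 and 37 to 69. H2BC8 had 23 to 38 counts in HG-NC and 32, 30 and 75 in HG-OE, and H4C5 had 22 to 33 and 21, 12 and 48. In H2BC15, H2AC11, H3C10, H2BC8 and H4C5 the highest count of all libraries was that of HG-OE replicate 3, and the groups overlapped. On the CPM scale H2BC15 was highest in HG-NC replicate 1, with 4.56 against 4.27 in HG-OE replicate 3. H3C8 had 16 to 28 counts in HG-NC and 20 to 33 in HG-OE. In H4C14, an H4 gene counted over 1875 bases, all 100-base windows of the intronless form also occur in other genes. H4C14 was not called (log2 fold change -0.88, adjusted p = 0.102), but without HG-OE replicate 2 it was called lower (-1.66, adjusted p = 0.0113).

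Over the 23 members tested, the groups did not overlap in 9, whereas this held for 59% of all genes tested. These were the same 9 genes that passed at the adjusted p, namely H2AC6, H2BC12, H1-2, H2BC5, H2BC21, H3C6, H2BC18, H1-4 and H3C12. The median log2 fold change of genes within 10 Mb that were not members was 0.06 to 0.08 around tested members of chromosome 6. It was 0.14 around those of chromosome 1. Subtracting this median left H3C12 at 2.07, H1-4 at 2.02 and H2BC18 at 0.82, and no call changed. The adjusted p was not recomputed and the shifts were small, so this step is no test of the calls.

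**Figure D3:**
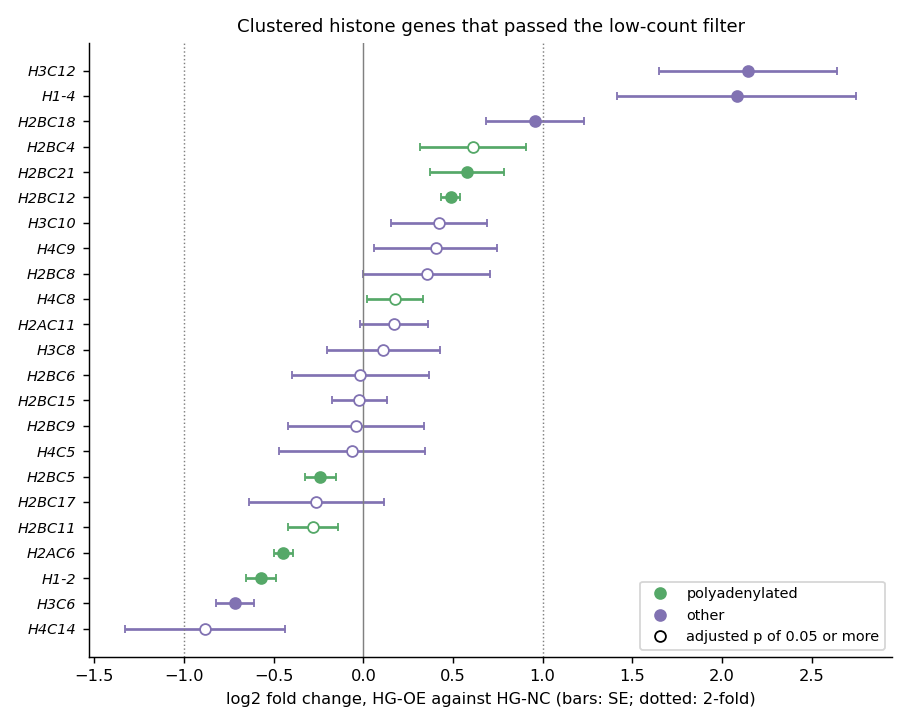
Log2 fold change of HG-OE against HG-NC with its standard error for the 23 members that passed the low-count filter, in green for polyadenylated and purple for other members. Filled points passed an adjusted p of 0.05, dotted lines mark 2-fold, and only H3C12 and H1-4 lie past 2-fold with a filled point.

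The remaining 37 members failed the low-count filter and none of them was on the polyadenylated list. In every library outside HG-OE replicate 3 they had fewer than 20 counts each, and in HG-OE replicate 3, 18 of them had 20 or more. In this library 25 of the 37 were over 2-fold above every other library, which held for 16.8% of all genes that failed the filter. H4C6 and H4C11 are among the 25 with 1 count, all of it in that library. Over all 60 members this was 27 genes, or 45.0%, against 8.25% of all genes listed, and it included 0 of the 8 polyadenylated members. The number of members with any count was 41, 42 and 41 in HG-NC, 47 and 48 in HG-OE replicates 1 and 2, and 58 in replicate 3.

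H3C2, the most counted of these members, encodes the same class of core histone as H3C6. It had 4, 4 and 10 counts in HG-NC, 4 and 10 in HG-OE replicates 1 and 2, and 101 in HG-OE replicate 3. H3C3 had 1, 2 and 0 counts in HG-NC, 2 and 9 in HG-OE replicates 1 and 2, and 74 in replicate 3. Both H3 genes were thus at or near the 3 counts that a count of 0 allows in several libraries, and were high only in HG-OE replicate 3. The other 16 of the 18 genes had 20 to 64 counts in replicate 3 and came from every histone class, among them H1-5 and H1-1, H2AC4, H2AC12, H2AC16 and H2AC20, H2BC3, H3C1, H3C7, H3C11 and H3C13, and H4C1 and H4C2. Of these, H3C13 shares 46.2% and H2AC20 12.7% of its 100-base windows with other genes. H1-1, a linker histone gene, was at 0 counts in 5 libraries and had 22 in HG-OE replicate 3. H1-6, the testis form of H1, had 1 count in all 6 libraries together.

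By class, the summed level of the other members in HG-OE replicate 3 against replicates 1 and 2 was 6.65 times for H1 (95% exact interval 4.75 to 9.45), 3.03 for H2A (2.56 to 3.59), 2.52 for H4 (2.01 to 3.16), 1.81 for H3 (1.62 to 2.02) and 1.70 for H2B (1.49 to 1.95). These sums mix members counted over short and over longer lengths. In replicate 3, H3C6, counted over 2677 bases, gave 197 of the 612 counts of H3. H2BC15, counted over 5422 bases, gave 125 of the 416 counts of H2B. The order of the classes was not separated from this mix. With no low-count filter, 16 members were called higher, of which 14 had failed the filter, while 3.08% of all genes were called higher. With HG-OE replicate 3 left out of that fit, 1 member, H3C12, was called higher and 0 lower, while 2.27% of all genes were called higher.

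**Figure D4:**
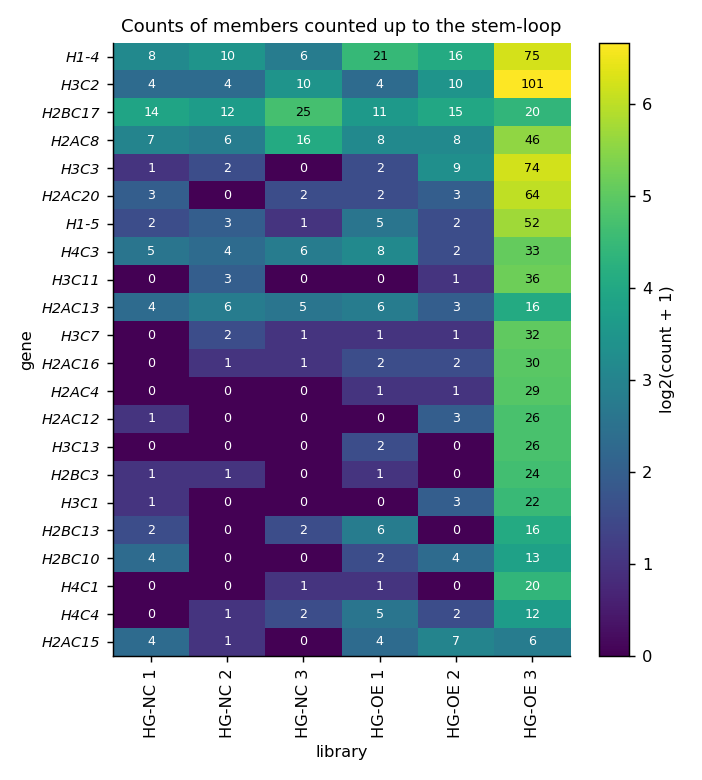
Counts of the 22 other members whose counting length ends at the stem-loop in each library, with colour for log2(count + 1) and the count printed in each cell. HG-OE replicate 3 holds 6 to 101 counts per gene and the remaining libraries at most 25, and 15 of the 22 genes have a counting length only because of that library.

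The length over which each gene was counted was read from the ratio of its deposited counts to its FPKM, scaled on 566 genes with 1 transcript. It could be had for 43 members. In 24 of them this length ended at the stem-loop, so sequence past it was not part of the counted length. Reads of longer transcripts that fall within that length may still have been counted. In 18 of the 43 the length ran over 200 bases past the intronless form, and H2BC21, annotated only in a long form, was counted over 2196 bases. Of the 8 polyadenylated members, 6 were counted over a longer form, such as H2AC6 over 1667 bases. H2BC12 and H1-2 were counted over the short form only, 495 and 730 bases, and were among the most counted members in every library.

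Among the other members, 13 were counted past the stem-loop and 22 up to it. A counting length needed a mean of at least 0.2 FPKM, and 15 of the 22 reached it only through HG-OE replicate 3, so their high level in that library was fixed by the choice. The remaining 7, which reached it in the other 5 libraries alone, are H1-4, H3C2, H2BC17, H2AC8, H4C3, H2AC13 and H2AC15. Their summed level was 1.81, 1.59 and 2.43 CPM in the HG-NC libraries, 2.14 and 2.10 in HG-OE replicates 1 and 2, and 10.1 in replicate 3, which is 4.79 times replicates 1 and 2 (95% exact interval 3.87 to 5.96). In 5 of the 7 the level of replicate 3 was over 2-fold above every other library. The exceptions were H2BC17, with 20 counts in replicate 3 and 11 to 25 elsewhere, and H2AC15, with 6 counts and 0 to 7 elsewhere. Of the 13, 12 reached the minimum without replicate 3, and in these replicate 3 stood at 1.21 times replicates 1 and 2 (1.10 to 1.32).

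**Figure D5:**
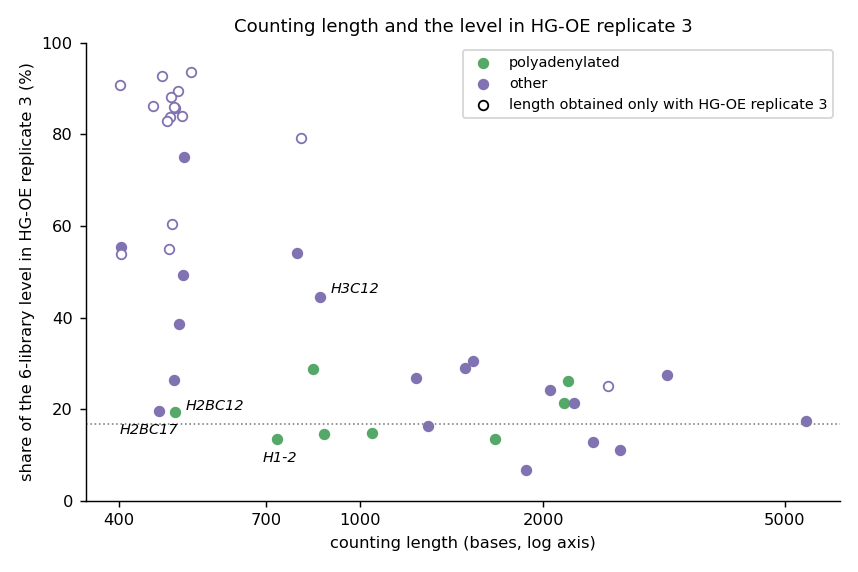
Share of each gene's level over the 6 libraries that lies in HG-OE replicate 3, against counting length on a log axis, for the 43 members with a length, with the dotted line at an equal share. Open points obtained a length only with that library, which fixes a high share for short genes. The polyadenylated members lie at 13.4% to 28.8%, and the filled points of the other members with short lengths reach 75.1%.

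Many H2A and H2B genes stand back to back, with starts close together, and the difference in level within such a pair varied. The starts of H2BC12 and H2AC12 are 251 bases apart. H2BC12 had 877 to 1427 counts, and H2AC12 had 1 count or 0 in HG-NC, 0 and 3 in HG-OE replicates 1 and 2, and 26 in replicate 3. H2AC6 and H2BC4, 219 bases apart, are both polyadenylated and had mean levels of 41.4 and 1.22 FPKM in HG-NC. The log2 fold change was -0.45 for H2AC6 and 0.61 for H2BC4, the latter not past the test. H2BC11 and H2AC11, 248 bases apart, had mean levels of 4.88 and 1.19 FPKM in HG-NC, and H2BC8 and H2AC8, 233 bases apart, had 0.717 and 0.627 FPKM. H2BC8 was counted over 1533 bases and H2AC8 over 510, and such unlike lengths limit these comparisons. Whether the counting used the strand is not given in the sources used here, and reads of overlapping forms cannot be told apart without it.

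Small structural RNAs that carry no poly(A) tail were mostly highest in HG-OE replicate 3. Of 22 chosen for comparison, 19 were listed in 20 entries, HG-OE replicate 3 was highest in 17 of these, and their summed level was at most 24.5 CPM in the HG-NC libraries, 40.7 and 43.7 in HG-OE replicates 1 and 2, and 179 CPM in HG-OE replicate 3. RN7SL1, the RNA of the signal recognition particle, had 137, 174 and 207 counts in HG-NC, 444 and 518 in HG-OE replicates 1 and 2, and 2030 in replicate 3. It did not pass (adjusted p = 0.0740), but without HG-OE replicate 3 it did (log2 fold change 1.36, adjusted p = 3.17e-17). Of the 9 that passed the filter, 2 were called higher, where 3.39% of all genes were. RPPH1, the RNA of ribonuclease P, had 71, 85 and 128 counts in HG-NC and 281, 294 and 579 in HG-OE. Its log2 fold change was 1.91 (adjusted p = 0.0195) and 1.49 (adjusted p = 4.51e-14) without HG-OE replicate 3, while the adjusted p was 0.0736 and 0.0776 without HG-NC replicate 1 or 2. SCARNA2, a Cajal body RNA, had 1, 1 and 5 counts against 18, 15 and 39, with a log2 fold change of 3.18 (adjusted p = 9.05e-05) and of 2.65 (adjusted p = 2.43e-04) without HG-OE replicate 3. The lowest summed level of these RNAs in HG-OE, 40.7 CPM, was above the highest in HG-NC, 24.5 CPM. Of the liver markers named above, HG-OE replicate 3 held the most of 12 of 14. Within HG-NC, every liver marker had its highest count in replicate 3, such as 78 for ALB, 65 for FGA, 53 for APOB and 34 for HP. HP had 33 counts in HG-OE replicate 3. SERPINA1 differed little within HG-NC, with 6990, 7155 and 7221 counts. The other members annotated in the short form only were at 10.8 CPM in HG-NC replicate 3 and at 9.83 and 9.31 in HG-NC replicates 1 and 2. The part of poly(A) selection, of RNA from other cells and of the cell cycle in the level of HG-OE replicate 3 was not tested.

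Genes of DNA synthesis with poly(A)-tailed mRNAs were compared in the same libraries. All 37 genes of the S-phase list were tested, and their summed level was 3041 to 3120 CPM in the HG-NC libraries, 3174 and 3235 in HG-OE replicates 1 and 2, and 3451 CPM in replicate 3. HG-OE replicate 3 was the highest library for 18 of the 37, against 22.2% of all genes listed, and was over 2-fold above every other library for 0 of them. Between the groups 14 were higher and 8 lower at the adjusted p (25.9% and 26.2% of all genes tested), 0 were called, and the median log2 fold change was 0.05. MCM7, a subunit of the replicative helicase, rose by 0.46 on the log2 scale (adjusted p = 3.07e-04), whereas PCNA, the sliding clamp, and MCM2 had log2 fold changes of -0.02 and -0.06 and did not pass.

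All genes of a list drawn up for the forming, supply and decay of the histone mRNA 3′ end were tested. Of the 17, 4 were higher and 5 lower at the adjusted p, where 25.9% of all genes tested were higher and 26.2% lower. None was called, and the median log2 fold change was 0.03. SLBP, which binds the stem-loop, had 3691, 3788 and 4163 counts in HG-NC and 4403, 4527 and 4648 in HG-OE, and its log2 fold change was 0.10 (SE 0.04, adjusted p = 0.0405). It did not pass without HG-NC replicate 1 or 2 or HG-OE replicate 2 or 3 (adjusted p = 0.0687, 0.182, 0.0890 and 0.0668). UPF1, the helicase of histone mRNA decay, was lower with a log2 fold change of -0.31 (adjusted p = 1.76e-04), and so was CPSF2, a subunit of the cleavage complex (-0.17, adjusted p = 0.0022). These 3 are the most counted genes of the list, and the log2 fold changes of all 17 ran from -0.46 to 0.56.

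Histone genes outside the clusters, most of them replication-independent variants with poly(A)-tailed mRNAs, also changed in both directions by less than 2-fold. The list also held H2AX, whose mRNA can end at a stem-loop too, and the H4 gene H4-16. Of 13 genes, 12 were tested, and 4 were higher and 5 lower at the adjusted p, where 25.9% of all genes tested were higher and 26.2% lower. None was called, and the median log2 fold change was -0.16. H3-3B, which encodes the replacement histone H3.3, fell by 0.44 on the log2 scale (SE 0.04, adjusted p = 5.92e-09), and H2AZ1, an H2A.Z gene of promoters, by 0.21 (SE 0.04, adjusted p = 3.63e-04). MACROH2A1 rose by 0.44 (SE 0.04, adjusted p = 3.74e-09). Their summed level was 1513 to 1717 CPM in every library, with HG-OE replicate 3 at 1603 CPM, between the groups.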

How the data were processed

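The authors captured mRNA on poly(A) beads and made directional paired-end libraries, although the labels also carry an example line on a total-RNA kit and give total RNA as the molecule. Reads were aligned to GRCh38 with HISAT2, per the labels. The gene counter, its strand setting and its annotation are not given in the sources used here. The deposited values are raw counts per gene and FPKM, made by the authors. The study's text names a batch correction, and whether it entered the counts is not stated there. Counts were tested with edgeR (version 4.0.16) quasi-likelihood fits (robust, TMM scaling, filterByExpr), with Benjamini-Hochberg adjustment over all genes tested, and called at an adjusted p under 0.05 and 2-fold. CPM were computed from the counts with TMM scaling. Alternatives used DESeq2 (1.42.0), limma (3.58.1) on log2(FPKM + 1) and log2(FPKM + 0.1), other filters and libraries left out. On simulated data for this comparison with 17142 genes, edgeR recovered 199 of 200 changed genes with 10 false calls. Members, lists and tests were chosen with earlier results of these data known. Named genes were all polyadenylated members, members called, the 10 other members with the highest mean count and, per list, the 3 most counted and those called. Members outside this rule, and the genes of back-to-back pairs, were chosen after their values were seen. H2AC1, H2BC1 and 4 pseudogenes were not analysed here as members. The liver, proximal tubule, epithelial, S-phase, 3′-end, variant and untailed RNA lists were written from general knowledge.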

Additional observations from a re-analysis of the deposited data

How the results depend on the processing

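Of the 101 values recomputed under an alternative, 73 kept their direction and stayed close to the main value. The 948 calls over all genes became 1453 with no low-count filter, 586 with at least 10 counts in every library, 144 and 138 by limma on log2(FPKM + 1) with and without a filter, and 8933 with no fold threshold. Members called higher, 2 in the main fit, were 16 with no filter, 7 by the DESeq2 Wald test, 5 with no fold threshold, 1 with neither a filter nor HG-OE replicate 3, 1 without HG-NC replicate 3 and HG-OE replicate 3 together, and 0 with at least 10 counts in every library and in both log2(FPKM + 1) fits. Leaving out 1 library at a time gave 1 to 3 members called higher and 0 to 1 called lower, and 4 were lower with no fold threshold. For the other members the median log2 fold change, 0.11, was 1.83 with no filter, 1.58 by DESeq2 and 1.05 on log2(FPKM + 0.1), and these fits tested more members. With 1 library left out it was -0.06 to 0.32, with the lowest value and the change of sign without HG-OE replicate 3, and for the polyadenylated members -0.09 to 0.01. The summed level of the other members in HG-OE replicate 3 over replicates 1 and 2, 2.16 times, was 4.11 in FPKM, 2.72 without its most counted gene, 1.38 with classes from the annotation and 1.32 with classes from the counting length, both of which place H2BC12 and H1-2 among the others, and 4.79 and 3.82 for the subsets of 7 and 42 other members given in the report. For the polyadenylated members it was 0.993 and became 1.03 without the most counted gene and 1.04 with classes from the counting length. The split by counting length, these subsets and the fits without 2 libraries or without a filter and HG-OE replicate 3 were chosen after seeing the data. Among 18 named members, 292 of 304 values kept their call or lack of one, 9 lost a call and 3 gained one. Only H3C12 and H1-4 were called in the main fit, so only they had a call to lose. A member that lost the adjusted p alone, such as H2BC21 without HG-OE replicate 3, was counted as unchanged. The replicate numbers did not pair the libraries, since the deviations of same-numbered libraries correlated by 0.02 to 0.06, and 2 of 3 HG-NC libraries correlated best with the HG-OE library of their number; with a replicate block 971 genes and 2 members were called. Counts of a few reads per library limit every member that failed the filter.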

Other observations

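Pseudogenes of the same clusters were counted too and were not members. H2BC20P had 118, 123 and 132 counts in HG-NC and 242, 235 and 185 in HG-OE, and its log2 fold change was 0.71 (SE 0.13, adjusted p = 1.12e-04, edgeR). H2BC19P had 79, 69 and 109 counts in HG-NC and 106, 137 and 143 in HG-OE, with a log2 fold change of 0.47 (SE 0.18, adjusted p = 0.0294), and it did not pass without HG-NC replicate 1 or 2 or HG-OE replicate 2 or 3 (adjusted p = 0.0880, 0.174, 0.0988 and 0.0516, edgeR). Both pseudogenes were chosen after their values were seen, and reads shared with H2B genes of similar sequence were not tested.

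Of 5 markers of simple epithelium, all listed, 4 were tested, and 1 was higher and 2 lower at the adjusted p. KRT8 was called higher in HG-OE (log2 fold change 1.35, adjusted p = 0.0069, edgeR). It had 18256 and 19006 counts in replicates 1 and 2 and 28781 in replicate 3, against 7438 to 8332 in HG-NC. The call held in the fit that left replicate 3 of HG-OE out (1.11, adjusted p = 5.91e-37). EPCAM (-0.56, adjusted p = 2.87e-07) and KRT19 (-0.55, adjusted p = 0.0326) were lower, by less than 2-fold. KRT18 did not pass (0.76, adjusted p = 0.0826), but with that library left out it did (0.44, adjusted p = 1.97e-16). CDH1, which encodes E-cadherin, had 2 to 10 counts in 5 libraries and 384 in HG-OE replicate 3.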
